A study of Mus musculus with 16 samples.

Results

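The 31 genes described here encode enzymes and regulators of cholesterol and fatty acid synthesis, measured in microglia of Ercc1 knockout mice and of wild-type mice. They were chosen by their symbols, and each symbol was found among the 53700 gene lines of every library. All 31 were among the 17090 genes with enough counts to be tested, so none was lost to the filter on low counts. The list does not hold every enzyme of either pathway.

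Microglia, the macrophages that reside in brain tissue, were sorted from whole brains as cells that were negative for the dead-cell dye DAPI and for Ly6c, with high CD11b and intermediate CD45, and their total RNA was sequenced in bulk. The protein made from Ercc1 is part of the nuclease that cuts DNA beside bulky lesions in nucleotide excision repair. The 16 libraries fall into 4 groups of 4, namely KO at 12 weeks, WT at 12 weeks, KO at 6 weeks and WT at 6 weeks. All mice came from a cross of C57Bl6J and FVB. By the labels, each 12-week group held 3 males and 1 female, and each 6-week group held 2 males and 2 females. The labels name the mutant only as Ercc1 KO, without its allele, and do not say whether each library came from 1 animal. P values therefore measure the spread between these samples, which may be technical. Values of a gene are given in the order of the replicate numbers in the labels, which are 1, 2, 3 and 4 in the KO groups and in WT at 6 weeks. In WT at 12 weeks they are 3, 4, 5_6 and 8.

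Cells build cholesterol from acetyl-CoA through mevalonate, squalene and lanosterol, and they build fatty acids from the same acetyl-CoA through malonyl-CoA. The SREBP transcription factors, which Srebf1 and Srebf2 encode, switch on both sets of genes when sterols in the endoplasmic reticulum run low. Scap escorts the SREBP precursors to the Golgi, and Insig proteins hold them back. In the brain cholesterol is made locally, in the adult largely by glia, and microglia that take up lipid-rich debris store it or pass it on to apolipoprotein E particles.

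Total counts per library were between 7882182 and 22142972. Levels are given as CPM, counts scaled to a common library total after TMM normalisation, and 3 counts were worth between 0.135 and 0.381 CPM, depending on the library. Ercc1 itself lay between 0.424 and 6.76 CPM in KO and between 7.45 and 49.1 CPM in WT at 12 weeks, and between 2.82 and 4.53 CPM in KO and 13.4 and 30.5 CPM in WT at 6 weeks, without overlap at either age. A set of 9 microglial markers, among them Cx3cr1, P2ry12 and Tmem119, summed to 27615 to 33151 CPM in KO and 42443 to 48295 CPM in WT at 12 weeks. At 6 weeks they summed to 38194 to 45305 CPM in KO and 49379 to 52367 CPM in WT. In WT at 12 weeks replicates 3 and 8 stood apart from the other libraries on principal components 2 and 3, and replicate 5_6, labelled male, held both Xist (339 CPM) and Y-linked transcripts (109 CPM). Mitochondrially encoded transcripts took 0.491 to 0.680 percent of counts in KO and 0.276 to 0.385 percent in WT at 12 weeks, and 0.328 to 0.405 percent in KO and 0.182 to 0.253 percent in WT at 6 weeks. In bulk RNA, fewer cells that express a gene and less RNA of it per cell cannot be told apart.

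**Figure D1:**
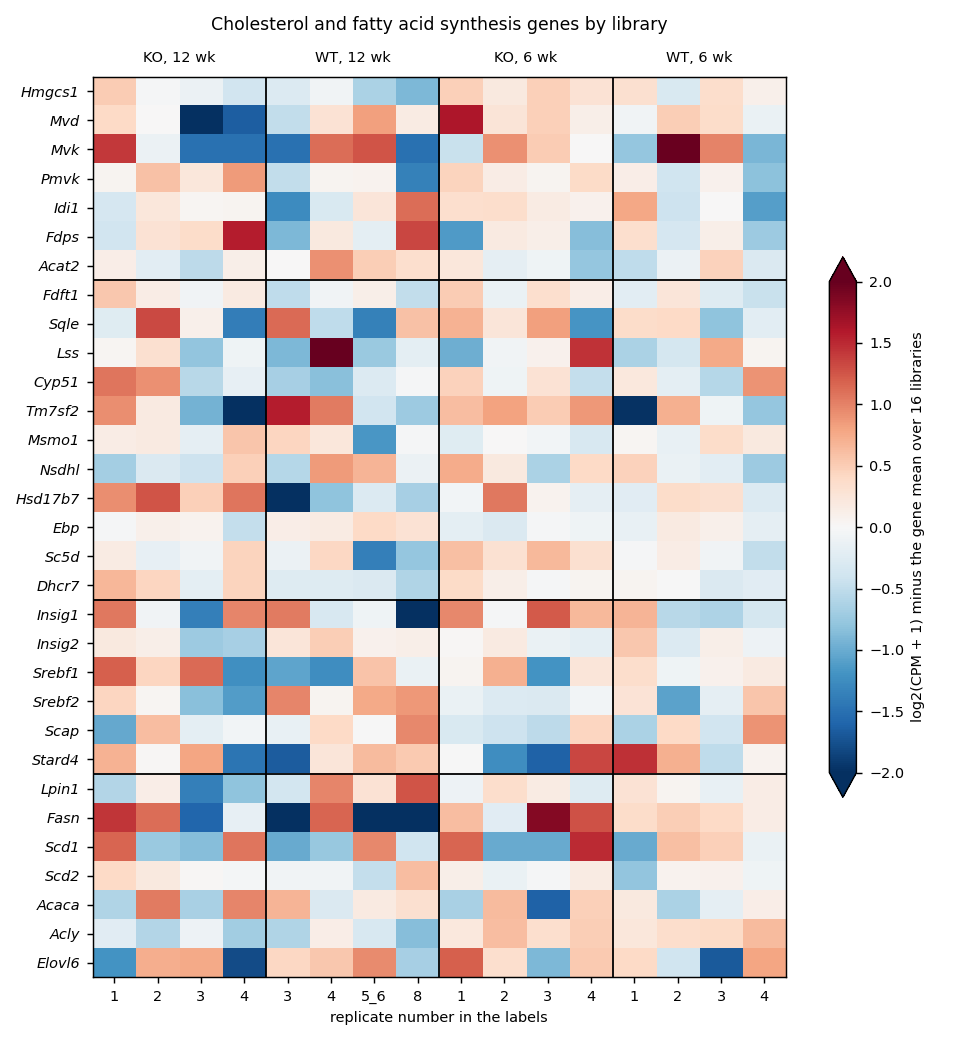
Level of each of the 31 genes in each of the 16 libraries. Rows are genes in the order mevalonate steps, squalene and sterol ring steps, regulators and sterol transfer, and fatty acid and lipid synthesis. Columns are libraries by replicate number. Colour gives log2(CPM + 1) minus the mean of the gene over the 16 libraries, and colours saturate at 2 in each direction. Acly is paler or bluer in the 12-week columns than in the 6-week columns of both genotypes, and Hsd17b7 is red in the 4 KO libraries at 12 weeks and blue in the 4 WT libraries of that age.

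Counts were sparse for many members. Over the 16 libraries 13 of them averaged under 10 CPM, 14 averaged 10 to 50 CPM and 4 averaged over 50 CPM, and 7 had no count in at least 1 library. Their summed level was 929 ± 120.5 CPM in KO and 941 ± 114 CPM in WT at 12 weeks, and 1039.7 ± 19.3 CPM in KO and 1003 ± 17.0 CPM in WT at 6 weeks (mean ± SD, n = 4 each). The sum reached 809 to 1062 CPM in KO and 870.1 to 1111 CPM in WT at 12 weeks, so the genotypes overlapped there. At 6 weeks KO reached 1014 to 1056 CPM and WT 977 to 1013 CPM, so that the lowest KO library and the highest WT library were nearly equal. The median biological coefficient of variation, the spread between libraries that exceeds counting error, was 0.409 over the members and 0.468 over all genes tested.

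Promoter letters were available for 25 of the 31 genes, as 33 windows that run from 250 bases before to 50 bases after an annotated start, from RefSeq on build GRCm38.p6. The counts were made on GRCm39, and positions here refer to GRCm38.p6. A set of 4 motifs was searched on both strands, and no match of one overlapped a match of another. These were the SREBP element TCACNCCAC, the CCAAT box bound by NF-Y, a frequent neighbour of SREBP sites, the E box CACGTG, and the GC box GGGCGG bound by Sp1. The SREBP element in this spelling was found in 1 of the 33 windows, that of Hmgcs1, and in 1.24% of 32851 promoters in all. A CCAAT box was present in 63.6% of the member windows, belonging to 20 genes, and in 37.4% of all promoters. The E box was present in 18.2% of member windows, belonging to 5 genes, and in 7.15% of all promoters. The GC box was present in 72.7% of member windows, belonging to 20 genes, and in 35.7% of all promoters. Windows of a gene can overlap, and the 2 windows of Scap share the same E box. A match describes letters only, and other spellings of a motif were not searched.

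Below are 4 of the windows, each 300 bases long and read 5′ to 3′ on the strand of the gene. Hmgcs1 is shown because its window holds the SREBP element, Hsd17b7 and Dhcr7 because they were the members whose KO libraries all lay above the WT libraries at 12 weeks, and Acly because its 12-week libraries all lay below its 6-week libraries in both genotypes. Capitals mark the SREBP element, the CCAAT box (ATTGG on the other strand) and the E box. Hmgcs1 lies on chromosome 13, plus strand, chr13:119690101-119690400, with the SREBP element starting at -137 from the start site and 4 CCAAT boxes.
Hmgcs1: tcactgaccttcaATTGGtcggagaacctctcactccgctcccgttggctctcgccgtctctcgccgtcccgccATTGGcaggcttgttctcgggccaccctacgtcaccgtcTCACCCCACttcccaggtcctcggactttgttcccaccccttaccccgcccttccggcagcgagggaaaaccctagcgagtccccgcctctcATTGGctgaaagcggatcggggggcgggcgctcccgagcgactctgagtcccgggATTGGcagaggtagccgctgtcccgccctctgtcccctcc
Hsd17b7 lies on chromosome 1, minus strand, chr1:169969156-169969455, with 3 CCAAT boxes and 1 E box that starts at -143.
Hsd17b7: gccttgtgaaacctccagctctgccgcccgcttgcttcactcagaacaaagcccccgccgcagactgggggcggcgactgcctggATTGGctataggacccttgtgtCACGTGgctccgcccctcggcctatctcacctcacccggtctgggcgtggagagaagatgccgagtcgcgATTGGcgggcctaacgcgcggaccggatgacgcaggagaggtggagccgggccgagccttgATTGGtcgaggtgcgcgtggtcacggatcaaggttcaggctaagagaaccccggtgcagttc
Dhcr7 has 3 annotated starts, of which the window with CCAAT boxes lies on chromosome 7, plus strand, chr7:143829964-143830263, and holds 2 of them.
Dhcr7: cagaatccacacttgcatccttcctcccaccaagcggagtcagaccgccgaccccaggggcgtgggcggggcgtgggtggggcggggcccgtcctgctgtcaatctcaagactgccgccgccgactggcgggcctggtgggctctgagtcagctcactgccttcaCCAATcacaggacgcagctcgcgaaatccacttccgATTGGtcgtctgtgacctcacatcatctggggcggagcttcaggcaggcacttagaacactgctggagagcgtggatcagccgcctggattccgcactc
Acly lies on chromosome 11, minus strand, chr11:100527951-100528250, and its single CCAAT box starts at 38, past the start site.
Acly: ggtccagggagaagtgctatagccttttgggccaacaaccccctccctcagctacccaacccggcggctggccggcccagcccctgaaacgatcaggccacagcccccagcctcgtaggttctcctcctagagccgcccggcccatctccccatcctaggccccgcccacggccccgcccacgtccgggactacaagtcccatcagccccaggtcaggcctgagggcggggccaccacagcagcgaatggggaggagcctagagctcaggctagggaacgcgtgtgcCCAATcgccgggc

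The first comparison asked whether lipid synthesis genes differed between KO and WT microglia at 12 weeks. By edgeR's quasi-likelihood test, adjusted over all genes tested, 0 of the 31 members passed the threshold of 0.05, where 2.98% of all genes did. The lowest adjusted p of a member was 0.0553. At an unadjusted p under 0.05 there were 8 members, 4 higher and 4 lower in KO, where 14.4% of all genes were below that value. DESeq2, run on the same counts with the same terms, called 3 members, Hsd17b7 and Dhcr7 as higher and Lpin1 as lower in KO. It called 6.89% of the 16804 genes that it gave an adjusted p. The groups of 4 libraries did not overlap for 3 members, Hsd17b7 and Dhcr7 on the higher side in KO and Ebp on the lower side, where 8.2% of all genes had such groups. The median log2 difference was 0.10 over the members and -0.03 over all genes tested, with 17 members above and 14 below 0.

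The sterol ring steps held all 3 members whose groups did not overlap at 12 weeks. Hsd17b7 encodes a reductase that acts on a keto group during demethylation of the sterol ring. It had 14.6, 18.8, 10.4 and 16.3 CPM in KO at 12 weeks, against 0, 3.70, 5.82 and 4.21 CPM in WT. All 4 KO libraries lay above all 4 WT libraries, and the WT library at 0 counts allows up to 0.324 CPM, the worth of 3 counts there, which covers counting error only. The means were 15.03 ± 3.50 CPM in KO and 3.43 ± 2.46 CPM in WT (SD, n = 4 each), and the log2 difference was 2.13 ± 0.76 (SE), with a 95% interval of 0.51 to 3.75. Its adjusted p was 0.177 by edgeR and 0.0274 by DESeq2. Without WT replicates 3 and 8, replicate 3 being the library at 0, the log2 difference was 1.61 with an edgeR adjusted p of 0.162.

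Dhcr7 encodes the reductase that turns 7-dehydrocholesterol into cholesterol, the last step of one branch of the pathway. Its level was 57.5, 48.7, 31.3 and 49.2 CPM in KO and 30.0, 29.8, 29.1 and 23.4 CPM in WT at 12 weeks. The lowest KO library, replicate 3, lay just above the highest WT library, and the groups did not overlap. The log2 difference was 0.72 ± 0.20, with an adjusted p of 0.0636 by edgeR and 0.00706 by DESeq2. With KO replicate 3 left out edgeR called Dhcr7 higher in KO, with a log2 difference of 0.89 and an adjusted p of 0.0224. With any other single library of these groups left out the edgeR adjusted p was 0.0525 to 0.14. Without WT replicates 3 and 8 the log2 difference was 0.73 and the edgeR adjusted p 0.182.

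Ebp encodes the isomerase that shifts a double bond in the sterol ring, and it pointed the other way. It had 114, 123, 121 and 82.2 CPM in KO and 126, 129.6, 151 and 140.4 CPM in WT at 12 weeks. The KO libraries lay below the WT libraries without overlap, and KO replicates 2 and 3 came close to the lowest WT library. The log2 difference was -0.32 ± 0.14 with an edgeR adjusted p of 0.304. Cyp51, the lanosterol demethylase, had 60.1, 53.9, 18.8 and 24.9 CPM in KO and 17.5, 15.4, 23.2 and 27.7 CPM in WT. KO replicates 1 and 2 were far above the rest, while KO replicates 3 and 4 lay within the WT range. Its log2 difference was 0.85 ± 0.35 with an edgeR adjusted p of 0.269.

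The other 7 ring-step genes overlapped between genotypes at 12 weeks. Fdft1, the squalene synthase that commits the pathway to sterols, averaged 53.1 ± 9.79 CPM in KO and 39.1 ± 8.77 CPM in WT, with a log2 difference of 0.44 ± 0.22. Sc5d, the sterol desaturase, averaged 31.6 ± 6.27 CPM in KO and 23.3 ± 12.6 CPM in WT, and Msmo1, the methylsterol monooxygenase, averaged 105 ± 22.1 CPM in KO and 90.2 ± 35.9 CPM in WT. Neither passed the test. Nsdhl, which decarboxylates the ring, had 23.2 ± 9.15 CPM in KO and 32.9 ± 14.6 CPM in WT. Sqle, the squalene epoxidase, had the same mean in both groups, 9.96 ± 8.29 CPM in KO and 9.96 ± 7.45 CPM in WT, with an interval of -1.37 to 1.59 on the log2 scale that leaves room for a difference in either direction. Lss, the lanosterol synthase, reached 3.81 to 9.33 CPM in KO and 3.45 to 32.7 CPM in WT, where replicate 4 alone exceeded 10 CPM. Tm7sf2, a sterol reductase, reached 0.375 to 12.2 CPM in KO and 3.16 to 19.5 CPM in WT. Over the 11 ring-step genes the median log2 difference was 0.24, with 7 above 0.

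Of the 7 mevalonate-step genes none passed the test at 12 weeks, and their median log2 difference was -0.11. Pmvk, the phosphomevalonate kinase, came nearest, with 20.5, 30.1, 23.1 and 36.3 CPM in KO and 13.6, 20.4, 20.6 and 7.06 CPM in WT. The lowest KO library was nearly equal to the 2 highest WT libraries, and the other KO libraries lay above them. Its log2 difference was 0.83 ± 0.34 and its edgeR adjusted p 0.251. Hmgcs1, the HMG-CoA synthase whose promoter holds the SREBP element printed above, had 52.5, 36.1, 33.7 and 28.03 CPM in KO and 30.3, 34.9, 23.2 and 19.3 CPM in WT. Its groups overlapped, with a log2 difference of 0.48 ± 0.24 and an edgeR adjusted p of 0.397. Acat2, which joins acetyl-CoA units at the entry to the pathway, pointed lower, with 21.9 ± 4.73 CPM in KO and 33.0 ± 8.96 CPM in WT and a log2 difference of -0.59 ± 0.30. Mvd, Mvk, Idi1 and Fdps, which carry mevalonate on to farnesyl diphosphate, each averaged under 10 CPM in every group. Their 95% intervals all held 0, and the widest, that of Mvk, was -3.89 to 3.02.

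The regulators pointed in different directions at 12 weeks. Srebf2, which encodes the SREBP factor that favours sterol genes, had 19.3, 14.3, 7.37 and 5.88 CPM in KO and 28.4, 14.5, 24.2 and 26.3 CPM in WT. WT replicate 4 lay among the KO libraries and the other WT libraries lay above them. The log2 difference was -1.06 ± 0.40, with an unadjusted p of 0.0182 and an adjusted p of 0.21 by edgeR. Srebf1, whose SREBP-1c product favours fatty acid genes, had 32.5, 18.8, 30.96 and 5.25 CPM in KO and 6.04, 5.21, 20.7 and 12.3 CPM in WT, with wide overlap and a log2 difference of 1.00 ± 0.57 in the opposite direction. Insig2, a retention protein of the endoplasmic reticulum, had 105, 100.03, 55.3 and 57.8 CPM in KO and 109, 130.3, 97.7 and 100.2 CPM in WT. KO replicates 3 and 4 were well below the WT range and KO replicates 1 and 2 were within it, and the log2 difference was -0.47 ± 0.22 with an edgeR adjusted p of 0.346. Insig1, itself a target of SREBP, averaged 12.7 ± 8.33 CPM in KO and 8.94 ± 8.17 CPM in WT. Scap averaged 16.8 ± 7.97 CPM in KO and 22.8 ± 8.69 CPM in WT, and Stard4, a carrier of sterol between membranes, averaged 8.83 ± 5.26 CPM in KO and 8.31 ± 4.64 CPM in WT. None of the 6 passed the test, and their median log2 difference was 0.02.

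Among the fatty acid genes Lpin1 had the lowest p of all members at 12 weeks. It encodes a phosphatidate phosphatase that makes diacylglycerol and also acts as a nuclear coregulator. It had 24.4, 41.1, 13.8 and 20.8 CPM in KO and 28.6, 74.2, 45.8 and 90.3 CPM in WT. WT replicate 3 lay within the KO range, and the other WT libraries lay above all KO libraries. The means were 25.0 ± 11.6 CPM in KO and 59.7 ± 27.7 CPM in WT, a log2 difference of -1.25 ± 0.33 with a 95% interval of -1.95 to -0.54. The adjusted p was 0.0553 by edgeR and 0.00664 by DESeq2. Without WT replicate 3 the edgeR adjusted p was 0.0337, and without KO replicate 2 it was 0.0274. With any other single library of these groups left out it was 0.0647 to 0.167, and Lpin1 did not pass. Without WT replicates 3 and 8 together it was 0.127.

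Fasn, the fatty acid synthase, had 14.1, 11.1, 0.860 and 4.00 CPM in KO and 0.324, 11.6, 0.131 and 0 CPM in WT at 12 weeks. A single WT library, replicate 4, carried nearly all of its WT counts. With all libraries the log2 difference was 1.32 ± 1.19 with an edgeR adjusted p of 0.722, and without WT replicate 4 it was 5.55 with an adjusted p of 0.0178. That value rests on 3 WT libraries with 3, 3 and 0 counts. Acly, the ATP citrate lyase that supplies cytosolic acetyl-CoA to both pathways, averaged 143 ± 27.7 CPM in KO and 145 ± 44.3 CPM in WT, with a log2 difference of -0.03 ± 0.19 and an interval of -0.44 to 0.39. Scd2, a desaturase that makes monounsaturated fatty acids, averaged 46.7 ± 6.81 CPM in KO and 43.5 ± 14.7 CPM in WT, with an interval of -0.42 to 0.63. Acaca, the acetyl-CoA carboxylase, averaged 6.94 ± 4.70 CPM in KO and 6.15 ± 1.91 CPM in WT. Elovl6, an elongase, reached 0 to 4.79 CPM in KO and 1.16 to 5.60 CPM in WT, and Scd1, the paralogue of Scd2, reached 0.123 to 3.53 CPM in KO and 0 to 2.93 CPM in WT. Both include libraries without a count, and how the counting treated reads shared by Scd1 and Scd2 is not given.

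**Figure D2:**
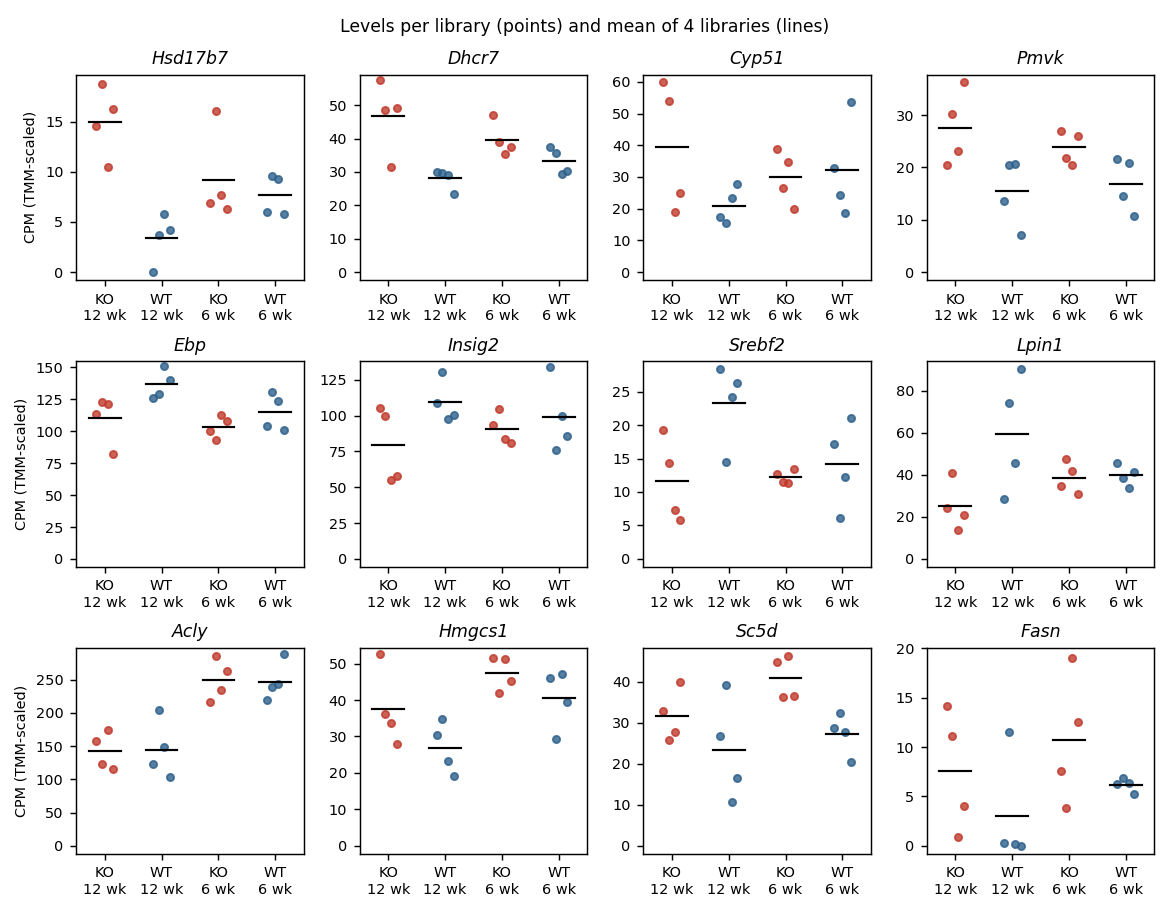
Levels of 12 members in CPM scaled by TMM, on linear axes. Points are libraries and lines are means of 4 libraries, with KO and WT at 12 weeks on the left and KO and WT at 6 weeks on the right of each panel. Hsd17b7 and Dhcr7 are apart between genotypes at 12 weeks and overlap at 6 weeks, and Acly is lower in the 12-week than in the 6-week libraries of both genotypes.

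**Figure D3:**
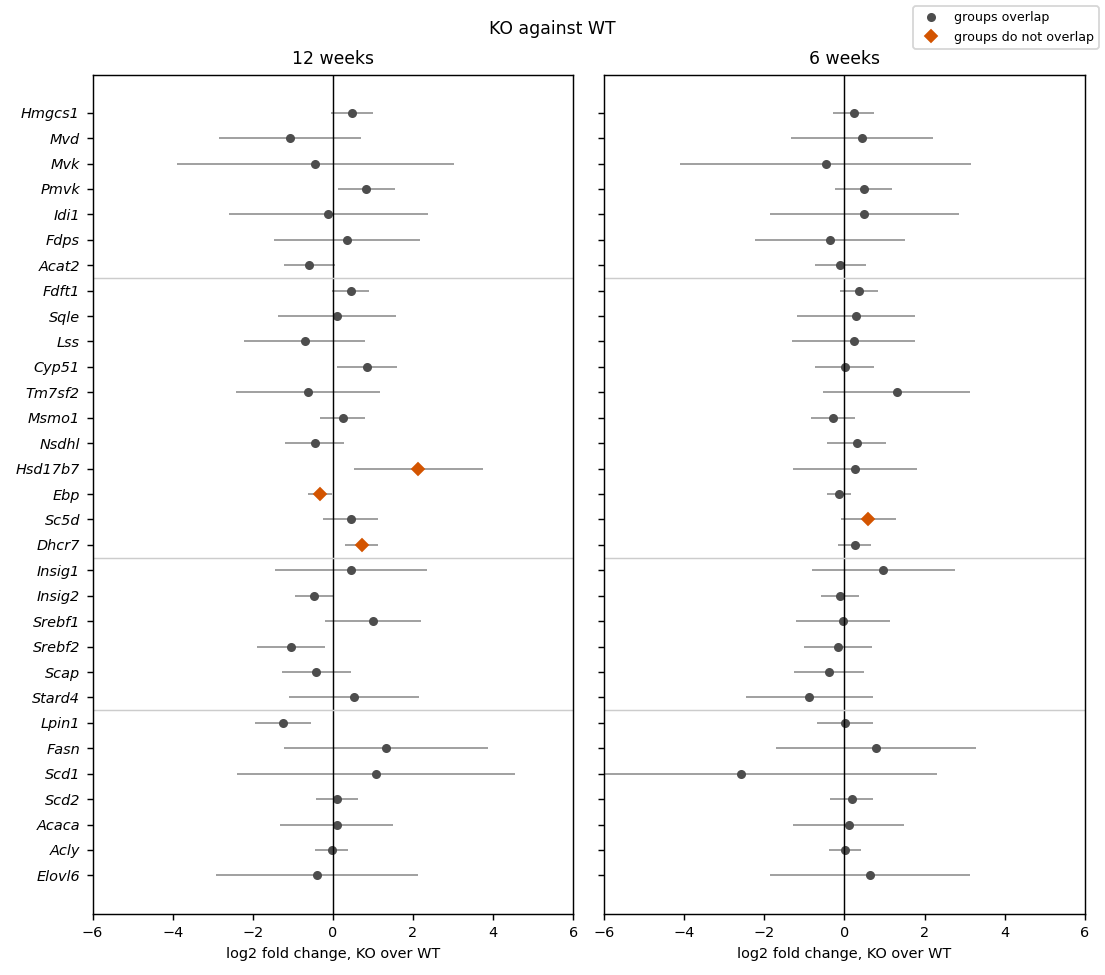
Log2 difference of KO over WT for the 31 members at 12 weeks (left) and 6 weeks (right) from edgeR. Points are estimates, bars are 95% intervals, and grey lines divide the roles. Orange diamonds mark members whose groups of libraries did not overlap, which were Hsd17b7, Ebp and Dhcr7 at 12 weeks and Sc5d at 6 weeks. The axis ends before the lower bound of Scd1 at 6 weeks, which is -7.49.

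Other values moved with the genotype at 12 weeks. Beside the lower microglial markers, 5 monocyte markers summed to 12.9 to 27.7 CPM in KO and 2.84 to 10.7 CPM in WT. Of these Ly6c2 and Chil3 were at 0 in both groups and Ly6c1 was at 0 in KO only. Only 2 of the 5 had enough counts to be tested. The 3 B cell markers summed to 29.6 to 57.6 CPM in KO and 65.7 to 92.1 CPM in WT. Of these Cd79a was at 0 in both groups, and only 1 of the 3 had enough counts to be tested. The part of these marker sums in the differences of the members was not tested. The sums of the markers of oligodendrocytes and their precursors, astrocytes and neurons overlapped between genotypes at both ages. Those of border-associated macrophages barely overlapped at 12 weeks, with 266.4 to 363.8 CPM in KO and 223.9 to 266.9 CPM in WT. At 6 weeks they overlapped, with 303 to 476 CPM in KO and 251 to 321 CPM in WT. Their median was higher in KO at both ages, and their part was not tested.

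At 6 weeks the same comparison found less. By edgeR 0 of the 31 members passed the threshold, where 0.872% of all genes did, and 0 had an unadjusted p under 0.05, where 7.31% of all genes had one. DESeq2 called 0 members, gave no adjusted p to 4 of them, and called 2.87% of the 12732 genes that it gave an adjusted p. For 1 member the groups did not overlap, where 7.88% of all genes had such groups. That was Sc5d, with 44.9, 36.4, 46.4 and 36.5 CPM in KO and 28.7, 32.4, 27.7 and 20.5 CPM in WT. The 4 KO libraries lay above the highest WT library, and the log2 difference was 0.59 ± 0.32 with an edgeR adjusted p of 0.803. At 12 weeks Sc5d had 32.9, 25.9, 27.8 and 39.9 CPM in KO and 26.8, 39.3, 10.7 and 16.5 CPM in WT, and there WT replicates 3 and 4 lay within the KO range. Ebp, whose groups did not overlap at 12 weeks, overlapped at 6 weeks, with 104 ± 8.62 CPM in KO and 115 ± 14.7 CPM in WT.

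By role, the median 6-week differences of the enzymes were above 0. Of the 11 ring-step genes 9 had a positive log2 difference, with a median of 0.27. Of the 7 mevalonate genes 4 were positive with a median of 0.23, and of the 7 fatty acid genes 6 were positive with a median of 0.10. Of the 6 regulators 1 was positive, Insig1, and the median was -0.13. Over all 31 members 20 were positive (64.5%), with a median of 0.18, while 48.2% of all genes were positive, with a median of -0.02. The median of the members rested on single libraries, since it was -0.0313 without KO replicate 2 and 0.0337 without WT replicate 1. No test was made of these counts, and genes of a pathway are not independent of each other. The summed level of the 8 endothelial and mural markers was 19.1 to 53.1 CPM in KO and 53.8 to 87.6 CPM in WT at 6 weeks, and its part was not tested.

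Hsd17b7, Dhcr7 and Lpin1, the members that DESeq2 called at 12 weeks, were not called at 6 weeks. Hsd17b7 had 6.90, 16.1, 7.66 and 6.25 CPM in KO and 6.02, 9.57, 9.31 and 5.81 CPM in WT, so that only KO replicate 2 exceeded the WT range. Dhcr7 had 47.0, 39.0, 35.2 and 37.5 CPM in KO and 37.4, 35.7, 29.4 and 30.4 CPM in WT, and Lpin1 had 34.5, 47.7, 41.7 and 30.99 CPM in KO and 45.6, 38.5, 33.6 and 41.2 CPM in WT. In all 3 the groups overlapped at 6 weeks. The log2 differences were 0.27 ± 0.72 for Hsd17b7, 0.25 ± 0.19 for Dhcr7 and 0.01 ± 0.32 for Lpin1. Intervals of the log2 difference lay within 1 of 0 in each direction for 12 of 31 members at 6 weeks and for 7 of 31 at 12 weeks. For the others the interval reached past a 2-fold difference in at least 1 direction.

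Whether the genotype difference itself changed with age was tested by the interaction term. By edgeR 0 of 31 members passed, where 0.00585% of all genes did, and 1 member had an unadjusted p under 0.05, where 4.74% of all genes had one. DESeq2 called 0 members and 0.327% of the 16804 genes that it gave an adjusted p. The member was Lpin1, whose log2 difference was -1.25 at 12 weeks and 0.01 at 6 weeks, a change of -1.26 ± 0.46 with an unadjusted p of 0.0153 and an edgeR adjusted p of 1. For Hsd17b7 the change was 1.87 ± 1.04 with an unadjusted p of 0.0918, and for Dhcr7 it was 0.46 ± 0.28 with an unadjusted p of 0.113. The separation of these genes at 12 weeks is thus not shown to differ from 6 weeks. The median change was -0.04 over the members and -0.00 over all genes.

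A contrast of KO and WT averaged over both ages was added after these values were seen. By edgeR it called 0 of 31 members and 4.65% of all genes, and 8 members had an unadjusted p under 0.05, where 15.6% of all genes had one. These were Dhcr7, Pmvk, Fdft1, Sc5d and Hsd17b7 on the higher side in KO and Lpin1, Ebp and Srebf2 on the lower side. DESeq2 called 1 member, Dhcr7, with an adjusted p of 0.00952, and 7.91% of the 16804 genes that it gave an adjusted p. The edgeR log2 difference of Dhcr7 was 0.48 ± 0.14 with an adjusted p of 0.0605, and KO averaged above WT at both ages. For Fdft1 it was 0.40 ± 0.15, with 53.1 ± 9.79 CPM in KO and 39.1 ± 8.77 CPM in WT at 12 weeks and 53.6 ± 10.1 CPM in KO and 41.2 ± 9.16 CPM in WT at 6 weeks. The share of members below an unadjusted p of 0.05, 8 of 31, cannot be set against that of all genes by a test here, because the members were chosen with results of these data known.

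The effect of age was compared within each genotype. In KO, edgeR called 0 of 31 members at 12 against 6 weeks, where it called 0.0234% of all genes, and 2 members, Acly and Lpin1, had an unadjusted p under 0.05, where 8.8% of all genes had one. DESeq2 called 1 member, Acly, and gave no adjusted p to 16 of the 31. It called 3.61% of the 7479 genes that it gave an adjusted p. In WT, edgeR called 0 members and 0.0117% of all genes, and Acly and Hmgcs1 had an unadjusted p under 0.05, where 7.44% of all genes had one. DESeq2 called Acly alone, where it called 0.905% of the 16804 genes that it gave an adjusted p. Acly was the single member whose ages did not overlap, in KO (6.57% of all genes) and in WT (5.31% of all genes).

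Acly had 158, 124, 173 and 115 CPM in KO at 12 weeks, against 216, 286, 234 and 263 CPM in KO at 6 weeks. It had 123, 205, 149 and 103 CPM in WT at 12 weeks, against 219, 239, 243 and 288 CPM in WT at 6 weeks. In both genotypes the highest 12-week library lay below the lowest 6-week library. The log2 difference of 12 over 6 weeks was -0.80 ± 0.20 in KO, with an adjusted p of 0.183 by edgeR and 0.00824 by DESeq2, and -0.76 ± 0.20 in WT, with 0.337 by edgeR and 0.0268 by DESeq2. The KO and WT groups of either age overlapped, and the interaction was -0.04 ± 0.27 with an interval of -0.62 to 0.54.

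In a contrast of 12 against 6 weeks averaged over both genotypes, added after these values were seen, Acly fell by 0.78 on the log2 scale (SE 0.14), with an edgeR adjusted p of 0.0315. It was the 1 of 31 members called, where 0.374% of all genes were called, and the other member with an unadjusted p under 0.05 was Hmgcs1, where 11.3% of all genes were below that value. DESeq2 called Acly too, with an adjusted p of 2.96e-05, and 5.89% of the 9461 genes that it gave an adjusted p. It gave no adjusted p to 11 of the members. With WT replicates 3 and 8 of 12 weeks left out, the edgeR log2 difference was -0.60 and the adjusted p 0.13. Over the 16 refits that leave out 1 library at a time the log2 difference ran from -0.88 to -0.70 and the adjusted p from 0.0102 to 0.128, and Acly passed the threshold in 5 of them. By the labels, the ages held males and females in different proportions, with the labelled sex as a term of the model. Any batch that separates the ages is not given in the labels and cannot be told apart from age.

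Hmgcs1 had 52.5, 36.1, 33.7 and 28.03 CPM at 12 weeks and 51.5, 41.9, 51.3 and 45.2 CPM at 6 weeks in KO, and 30.3, 34.9, 23.2 and 19.3 CPM at 12 weeks and 45.9, 29.4, 47.3 and 39.4 CPM at 6 weeks in WT. The ages overlapped in both genotypes, with the 12-week libraries mostly on the lower side. The log2 difference was -0.35 ± 0.25 in KO and -0.60 ± 0.25 in WT, with an edgeR adjusted p of 0.803 in KO and 0.587 in WT. Lpin1 pointed in opposite directions by genotype, with -0.81 ± 0.35 in KO and 0.44 ± 0.34 in WT, and neither passed the test. Over the members the median log2 difference of 12 over 6 weeks was -0.04 in KO, where that of all genes was -0.02, and 0.06 in WT, where that of all genes was -0.02. The sign of both medians of the members changed with single libraries left out. The summed level of the 10 oligodendrocyte markers, cells that make much cholesterol for myelin, was 232 to 250.3 CPM at 12 weeks and 282 to 349.8 CPM at 6 weeks in KO, without overlap. In WT it was 203 to 361 CPM at 12 weeks and 317 to 346 CPM at 6 weeks, with overlap. The sum of the 9 microglial markers was lower at 12 than at 6 weeks in both genotypes, without overlap between ages. The part of either sum in the age differences was not tested.

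**Figure D4:**
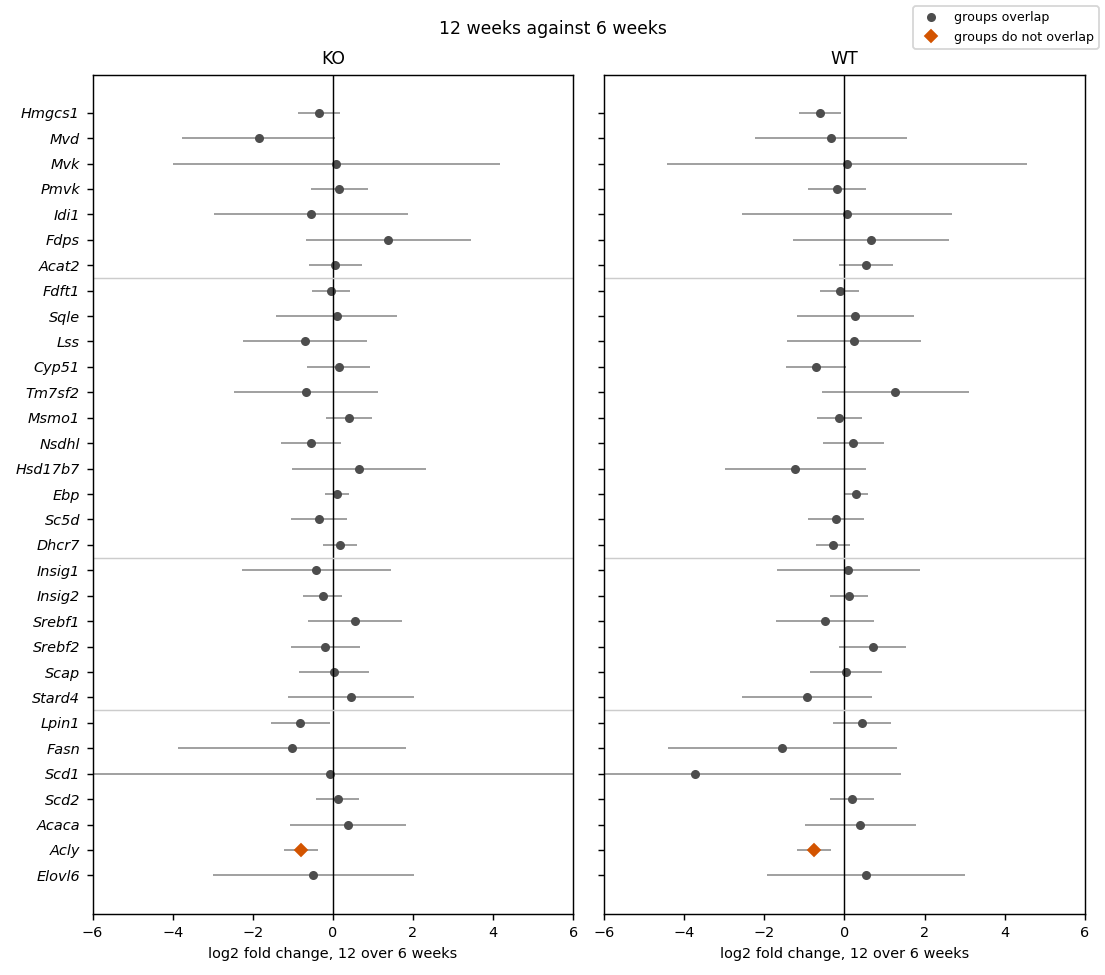
Log2 difference of 12 over 6 weeks for the 31 members in KO (left) and WT (right) from edgeR, with 95% intervals as bars and grey lines between the roles. The orange diamonds mark Acly, the single member whose ages did not overlap, at -0.80 in KO and -0.76 in WT. The axis ends before both bounds of Scd1 in KO, -9.00 and 8.88, and before its lower bound in WT, -8.87.

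Other genes of the same pathways were counted by list. Beside these counts, 14.4% of all genes at 12 weeks and 7.31% at 6 weeks had an unadjusted p under 0.05 for KO against WT. EdgeR called 2.98% of all genes at 12 weeks and 0.872% at 6 weeks. Of the genes that DESeq2 gave an adjusted p, it called 6.89% at 12 weeks and 2.87% at 6 weeks. Of 15 further mevalonate and sterol genes 14 were tested. By edgeR 0 of them passed in the comparison of KO with WT at either age, with 1 at 12 weeks and 0 at 6 weeks at an unadjusted p under 0.05, and DESeq2 called 0 at either age. Of 14 genes of SREBP processing and sterol sensing edgeR called 0 at either age, with 3 at 12 weeks and 1 at 6 weeks at an unadjusted p under 0.05. DESeq2 called 2 of those at 12 weeks and 0 at 6 weeks. Of 28 other genes of fatty acid synthesis, elongation and desaturation 23 were tested. By edgeR 1 fell and 0 rose in KO at 12 weeks, where 4 had an unadjusted p under 0.05. DESeq2 called 4 at 12 weeks, Acsl5 and Hacd2 as higher and Tecr and Thrsp as lower in KO. By edgeR 0 passed at 6 weeks, where 2 had an unadjusted p under 0.05 and DESeq2 called 1. The gene that edgeR called was Thrsp, a nuclear protein linked to lipogenesis. At 12 weeks it had 136 ± 14.3 CPM in KO and 202 ± 29.3 CPM in WT, a log2 difference of -0.57 ± 0.15 and an edgeR adjusted p of 0.0479.

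Genes listed under sterol export, storage and oxysterols differed from these lists in their counts, although no test between lists was made. The list also holds genes that act on other lipids, such as Lpl, and was chosen with earlier results of these data known. Of 16 such genes 15 were tested, and 5 rose and 0 fell in KO at 12 weeks, where edgeR called 2.98% of all genes, while 4 rose and 0 fell at 6 weeks, where it called 0.872%. Their median log2 difference was 0.61 at 12 weeks and 0.49 at 6 weeks, beside 0.10 at 12 weeks and 0.18 at 6 weeks for the 31 synthesis genes. Apoe, the apolipoprotein of glial lipid particles, averaged 6377 ± 1414 CPM in KO and 728 ± 115 CPM in WT at 12 weeks, with a log2 difference of 3.13 ± 0.19 and an edgeR adjusted p of 4.69e-07. At 6 weeks its log2 difference was 1.94 ± 0.18 with an edgeR adjusted p of 4.65e-05. Ch25h makes 25-hydroxycholesterol, an oxysterol known to hold SREBP precursors in the endoplasmic reticulum. It averaged 82.7 ± 16.7 CPM in KO and 14.6 ± 9.36 CPM in WT at 12 weeks, and 73.3 ± 17.0 CPM in KO and 18.1 ± 5.58 CPM in WT at 6 weeks. It rose by a log2 difference of 2.58 ± 0.38 with an edgeR adjusted p of 0.000955 at 12 weeks, and by 2.07 ± 0.37 with 0.0114 at 6 weeks. Lpl, the lipoprotein lipase, rose by a log2 difference of 2.73 ± 0.24 at 12 weeks and 2.92 ± 0.24 at 6 weeks. Npc2, the lysosomal sterol carrier, rose by 0.70 ± 0.11 at 12 weeks and 0.57 ± 0.11 at 6 weeks, and Nceh1, a hydrolase of cholesteryl ester, rose by 1.55 ± 0.37 at 12 weeks. Of all 66 genes of the 4 lists that were tested, edgeR called 0 for age in KO, 0 for age in WT and 0 for the interaction. At an unadjusted p under 0.05 there were 8 for age in KO, where 8.8% of all genes were below that value, 8 for age in WT (7.44% of all genes) and 4 for the interaction (4.74% of all genes). DESeq2 called 2 for age in KO, where it gave no adjusted p to 19. It called 1 for age in WT and 1 for the interaction. Of the genes that it gave an adjusted p, it called 3.61% for age in KO, 0.905% for age in WT and 0.327% for the interaction. The gene of the interaction was Apoe, with a change of 1.19 ± 0.25 by edgeR, an edgeR adjusted p of 0.474 and a DESeq2 adjusted p of 0.000906.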

How the data were processed

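RNA of sorted microglia was sequenced in 16 libraries, 4 in each group of genotype and age, after preparation with a low-input kit, per the labels' protocols. The authors deposited raw counts per gene, with 53700 gene lines in each library and totals of 7882182 to 22142972. The submitters' processing notes list HTSeq 0.11.0 and TopHat, beside Picard, SAMtools 1.10, cutadapt 2.10 and FastQC 0.11.9, with the mouse genome GRCm39. Which annotation was used, and whether counting took strand or shared reads into account, is not given in the sources used here. A deposited table of the whole series held the same counts for all 31 members and served only for that check.

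The tests used edgeR 4.0.16, which builds on limma 3.58.1, in R 4.3.3. Genes were filtered by group at a minimum count of 10, which kept 17090, and libraries were scaled by TMM. All 16 libraries entered a single quasi-likelihood fit (robust setting) whose terms were the 4 groups and the labelled sex. Two-sided p values were adjusted over the 17090 genes by the method of Benjamini and Hochberg, and an adjusted p under 0.05 passed. Standard errors were derived from the log2 difference and its F statistic. DESeq2 1.42.0 was the alternative test, and an adjusted p that it did not give stays missing. The model was tested on simulated data. With few counts a log2 difference depends on the prior. Replicates differed by more than sampling noise in every group. Intervals and floors cover counting error only where they come from counts, since PCR reads without molecular identifiers are not independent molecules.

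The 31 members, their roles, the pathway lists and the marker lists were chosen with earlier results of these data known, so no list was given a test. All members are named. Members whose groups do not overlap, or that pass a threshold, are given in every library of the groups compared there, and so are a few others. Other genes are named if they belong to a pathway list and pass the threshold, up to 6 per list and comparison. Alternatives were other scaling, no filter, no sex term, a replicate block, fits of only the groups compared, and libraries left out. Some genes of the marker lists are not reported here and were left out of the sums.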

Additional observations from a re-analysis of the deposited data

Results flagged for a closer look

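In groups of 4 libraries, 1 library was set apart where its gap to the nearest other library exceeded the share of the group's range that Dixon's 95% critical value allows. Chance sets apart about 1 in 20 groups, and here it was 6 of 124. In WT at 12 weeks replicate 4 was high for Fasn, with 11.6 CPM where the others had 0 to 0.324 CPM, and for Lss, with 32.7 CPM where the others had 3.45 to 6.21 CPM. In the same group replicate 8 was low for Dhcr7, with 23.4 CPM where the others had 29.1 to 30.0 CPM. In KO at 6 weeks replicate 2 was high for Hsd17b7, with 16.1 CPM where the others had 6.25 to 7.66 CPM, and replicate 1 was high for Mvd, with 18.3 CPM where the others had 5.80 to 7.77 CPM. In WT at 6 weeks replicate 1 was high for Insig1, with 15.3 CPM where the others had 5.68 to 7.03 CPM.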

How the results depend on the processing

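No called value changed sign. The count of members that pass stayed at 0 for KO against WT at 6 weeks and for the change of the genotype difference with age under every alternative tried. At 12 weeks it was 2 without a filter (Hsd17b7 and Lpin1) and 3 by DESeq2, and it ran from 0 to 1 when 1 library was left out, with Lpin1, Dhcr7 or Fasn as the member called. Of all genes, 1073 of 29343 passed there without a filter and 1158 by DESeq2, where 510 of 17090 did in the main fit. With 1 library left out, 328 to 463 of all genes passed. For age it was 1 in KO and 1 in WT, Acly each time, both without a filter and by DESeq2, and 0 when 1 library was left out. Of all genes, 204 passed for age in KO without a filter and 270 by DESeq2, where 4 did in the main fit. In WT 194 passed without a filter and 152 by DESeq2, where 2 did in the main fit. For the added mean over ages it was 1 by DESeq2 (1330 of all genes) and 0 to 2 with 1 library left out (625 to 785 of all genes). For the added mean over genotypes it was 0 without WT replicates 3 and 8 of 12 weeks (5 of all genes), where the Acly difference was -0.60. It was 0 to 1 there with 1 library left out (5 to 99 of all genes). The cause of these changes was not tested. With 1 library left out, the median log2 difference of the members ran from -0.0313 to 0.196 at 6 weeks, 0.0138 to 0.289 at 12 weeks, -0.235 to 0.00963 for age in KO, -0.164 to 0.0939 for age in WT, -0.177 to 0.133 for the change of the genotype difference with age, -0.025 to 0.132 for the mean over ages and -0.142 to 0.00953 for the mean over genotypes. For that change it was -0.241 without WT replicates 3 and 8, beyond the replicate spread of 0.172. Deviations of same-numbered libraries correlated at -0.027 to 0.062 over 18 pairs, and those of differently numbered libraries at -0.061 to 0.045 over 78 pairs. The labels do not say what a number marks, and correlations this small cannot show that same-numbered samples share nothing. With the replicate number as a block in place of sex, the median was -0.131 at 12 weeks and 0.0527 at 6 weeks. The added mean over genotypes then called 0 members and 2 of all genes. Depth limits most the 13 members under 10 CPM.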

Other observations

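The list of sterol export, storage and oxysterol genes was also counted in the contrast of KO and WT averaged over both ages, chosen after seeing the data. By edgeR 8 of the 15 tested genes of sterol export, storage and oxysterols rose in KO and 0 fell, where 4.65% of all genes were called. DESeq2 called 9, where it called 7.91% of the genes that it gave an adjusted p. No test between this list and all genes was made. Beside Apoe, Lpl, Ch25h, Npc2 and Nceh1 these were Abcg1, a sterol exporter, with a log2 difference of 0.43 ± 0.08 (SE) and an edgeR adjusted p of 0.0042, Soat1, which esterifies cholesterol for storage, with 0.55 ± 0.12 and an edgeR adjusted p of 0.0149, and Lipa, the lysosomal acid lipase, with 0.30 ± 0.08 and an edgeR adjusted p of 0.0482. The last 2 are named although they rank below the 6 genes with the smallest p in that list. The same contrast called 2 of the 23 other fatty acid genes. Hacd2, a dehydratase of very long chain fatty acid elongation, rose with 0.56 ± 0.12 and an edgeR adjusted p of 0.0117, and Thrsp fell with -0.39 ± 0.10 and an edgeR adjusted p of 0.0424. Of the 14 genes of SREBP processing and sterol sensing 1 fell, Mylip, a ligase that marks lipoprotein receptors for degradation, with -0.30 ± 0.08 and an edgeR adjusted p of 0.0313. Of the 14 other mevalonate and sterol genes edgeR called 0 and DESeq2 called 1. By edgeR 1 of them had an unadjusted p under 0.05, where 15.6% of all genes had one. This contrast shares its libraries with the comparisons at each age and adds no independent samples.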
